A study of Mus musculus with 18 samples.

Results

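The genes described here carry secreted and membrane proteins into the endoplasmic reticulum (ER), modify and fold them there, and move them between the ER and the Golgi apparatus. They were chosen by name: protein-coding genes of the deposited table whose symbols begin with those of the signal recognition particle, the Sec61 translocon, the translocon-associated protein complex, signal peptidase, oligosaccharyltransferase, the Pdia disulfide isomerases, the COPII and COPI coats, the Sec22 SNAREs, the p24 (Tmed) proteins and the KDEL receptors. The rule gave 64 of 10897 measured genes; 1 further row that matched the names, Tmed10-ps, was not protein-coding and was left out. One member, Ssrp1, matched by its letters alone, since it encodes a subunit of the histone chaperone FACT. All 64 were measured in every library, with at least 163 reads, and no filter on low values was applied here. The family members Sec61a2, Sec22c, Sec31b, Pdia2, Pdialt, Tmed8, Tmed11, Kdelc1 and Kdelc2 were not analysed here.

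RNA of mouse colorectal tissue was sequenced after removal of ribosomal RNA in 18 libraries, 6 in each of 3 groups of male C57BL/6J mice aged 10 weeks. GF-AOMS is described in the labels as germ-free mice with colorectal cancer induced by azoxymethane (AOM, a colon carcinogen) and exposed to cigarette smoke, and GF-AOM as germ-free mice with AOM-induced cancer alone. For Control the labels conflict: the sample characteristics give SPF (specific pathogen-free) mice whose cancer was induced by AOM, and the treatment protocol gives normal controls, with an SPF facility named for all mice. GF-AOMS therefore differs from GF-AOM by smoke under both readings, while comparisons with Control can be of germ-free status or of AOM, and the groups are called by their names. The genotype field gives wild type for Control and germ-free for GF-AOMS and GF-AOM, and names no engineered allele; the tissue is called colorectal, without saying whether tumour was taken. The labels put all libraries in 1 batch, and they do not say that each library came from a separate animal, so p-values measure only the spread between these samples.

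Most proteins that leave a cell are recognised by the signal recognition particle as they emerge from the ribosome and are threaded through the Sec61 channel into the ER. There signal peptidase removes the signal peptide, oligosaccharyltransferase adds N-linked glycans, and disulfide isomerases form and rearrange disulfide bonds. COPII-coated vesicles then carry cargo to the Golgi apparatus, and COPI-coated vesicles return escaped ER proteins bound to KDEL receptors. In the colon, goblet cells, which secrete the mucin MUC2, and plasma cells, which secrete antibodies, depend heavily on this machinery, and the unfolded protein response raises its genes through the factors XBP1 and ATF6.

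Because XBP1 and ATF6 act through known DNA motifs, the promoters of the members were searched for them, in RefSeq windows of 250 bases before to 50 bases after each gene's start (GRCm38.p6), on both strands. Of the 64 members, 54 matched a RefSeq window. The core of the unfolded protein response element bound by XBP1, TGACGTGG, was found in 5 of the 54 (9.26%), against 93 of the 7886 matched genes of the whole table (1.18%) and 0.714% of 27025 RefSeq genes. Its shorter core ACGTGG, which lies inside TGACGTGG, was found in 22 of the 54 (40.7%), against 13.7% of the table's matched genes. The ER stress response element, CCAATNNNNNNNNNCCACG, was found in 1 member, Pdia6 (1.85%), against 0.139% of the table's matched genes and 6 of 19 other ER chaperone and folding genes (31.6%). A match is a description of these letters and not evidence of binding. The motif-bearing stretches that lie before the RefSeq start are printed 5′ to 3′ on the gene's own strand, with the motif in capitals, for the 3 members with TGACGTGG there and for Pdia6. Copb1 encodes the COPI subunit beta-COP, Kdelr3 a KDEL receptor, Sec24d a COPII cargo adaptor and Pdia6 a disulfide isomerase. CCACGTCA is TGACGTGG read from the other strand. By the deposited gene coordinates, which differ from RefSeq's starts, the Copb1 and Sec24d motifs lie just inside the gene, and those of Kdelr3 and Pdia6 before it.
Copb1 (chr7:114254681-114254734, minus strand): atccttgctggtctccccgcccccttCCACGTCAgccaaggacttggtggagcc
Kdelr3 (chr15:79516352-79516407, plus strand): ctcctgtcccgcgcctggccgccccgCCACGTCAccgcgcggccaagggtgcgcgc
Sec24d (chr3:123267444-123267495, plus strand): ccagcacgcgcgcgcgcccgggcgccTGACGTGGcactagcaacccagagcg
Pdia6 (chr12:17266465-17266535, plus strand): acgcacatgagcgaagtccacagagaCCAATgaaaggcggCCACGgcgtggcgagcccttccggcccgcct
The other 2 members with TGACGTGG were Copb2 and Sec23a, whose matches reached to or past the RefSeq start. The 4 printed genes showed no called difference: between GF-AOMS and GF-AOM libraries the log2 differences were -0.03 for Copb1, -0.15 for Kdelr3, -0.10 for Sec24d and -0.12 for Pdia6.

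No member passed the test in any comparison (edgeR's quasi-likelihood test, p adjusted over all 10897 genes by Benjamini and Hochberg's method and under 0.05). In GF-AOMS against GF-AOM 0 of 64 members were called, against 0% of all genes, and 0 had an unadjusted p under 0.05, against 1.09% of all genes. DESeq2 also called 0 members there, against 0.0275% of all genes. In GF-AOM against Control 0 of 64 were called, against 0.00918% of all genes (a single gene), and DESeq2 called 0 members against 2.61% of all genes. An unadjusted p under 0.05 was seen for 5 members, against 15.7% of all genes: 4 were higher in GF-AOM, against 5.98% of all genes, and 1 lower, against 9.74%. In GF-AOMS against Control 0 of 64 were called, against 0.734% of all genes, and DESeq2 called 0 members against 3.44%. There 3 members had an unadjusted p under 0.05, against 16.2% of all genes: 2 higher, against 6.93%, and 1 lower, against 9.25%. In no member did the 6 values of one group lie wholly above or below those of another, against 0.762% of all genes for GF-AOM and Control, 0.0642% for GF-AOMS and GF-AOM, and 0.798% for GF-AOMS and Control.

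The intervals show how precisely the fit to these 18 libraries estimated each difference. They are per gene, are not adjusted for the number of members, and do not cover other choices of libraries. In GF-AOMS against GF-AOM the 95% interval lay within 1 log2 unit on either side of 0 for 63 of 64 members and within 0.5 for 44. In GF-AOM against Control these counts were 54 and 36, and in GF-AOMS against Control 57 and 40. The median log2 difference over the 64 members was -0.04 in GF-AOMS against GF-AOM, 0.03 in GF-AOM against Control and 0.00 in GF-AOMS against Control. Over all genes the same medians were 0.01, -0.00 and 0.01. A positive difference was found for 17 of 64 members in GF-AOMS against GF-AOM (53.6% of all genes), 35 in GF-AOM against Control (49.5% of all genes) and 32 in GF-AOMS against Control (51% of all genes). The counts against Control depended on its libraries. Without Control replicates 3 to 6 they were 14 of 64 in GF-AOM and 10 of 64 in GF-AOMS. The share of all genes in that setting is not given here. Members together took between 0.846% and 1.27% of the reads of a library.

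**Figure D1:**
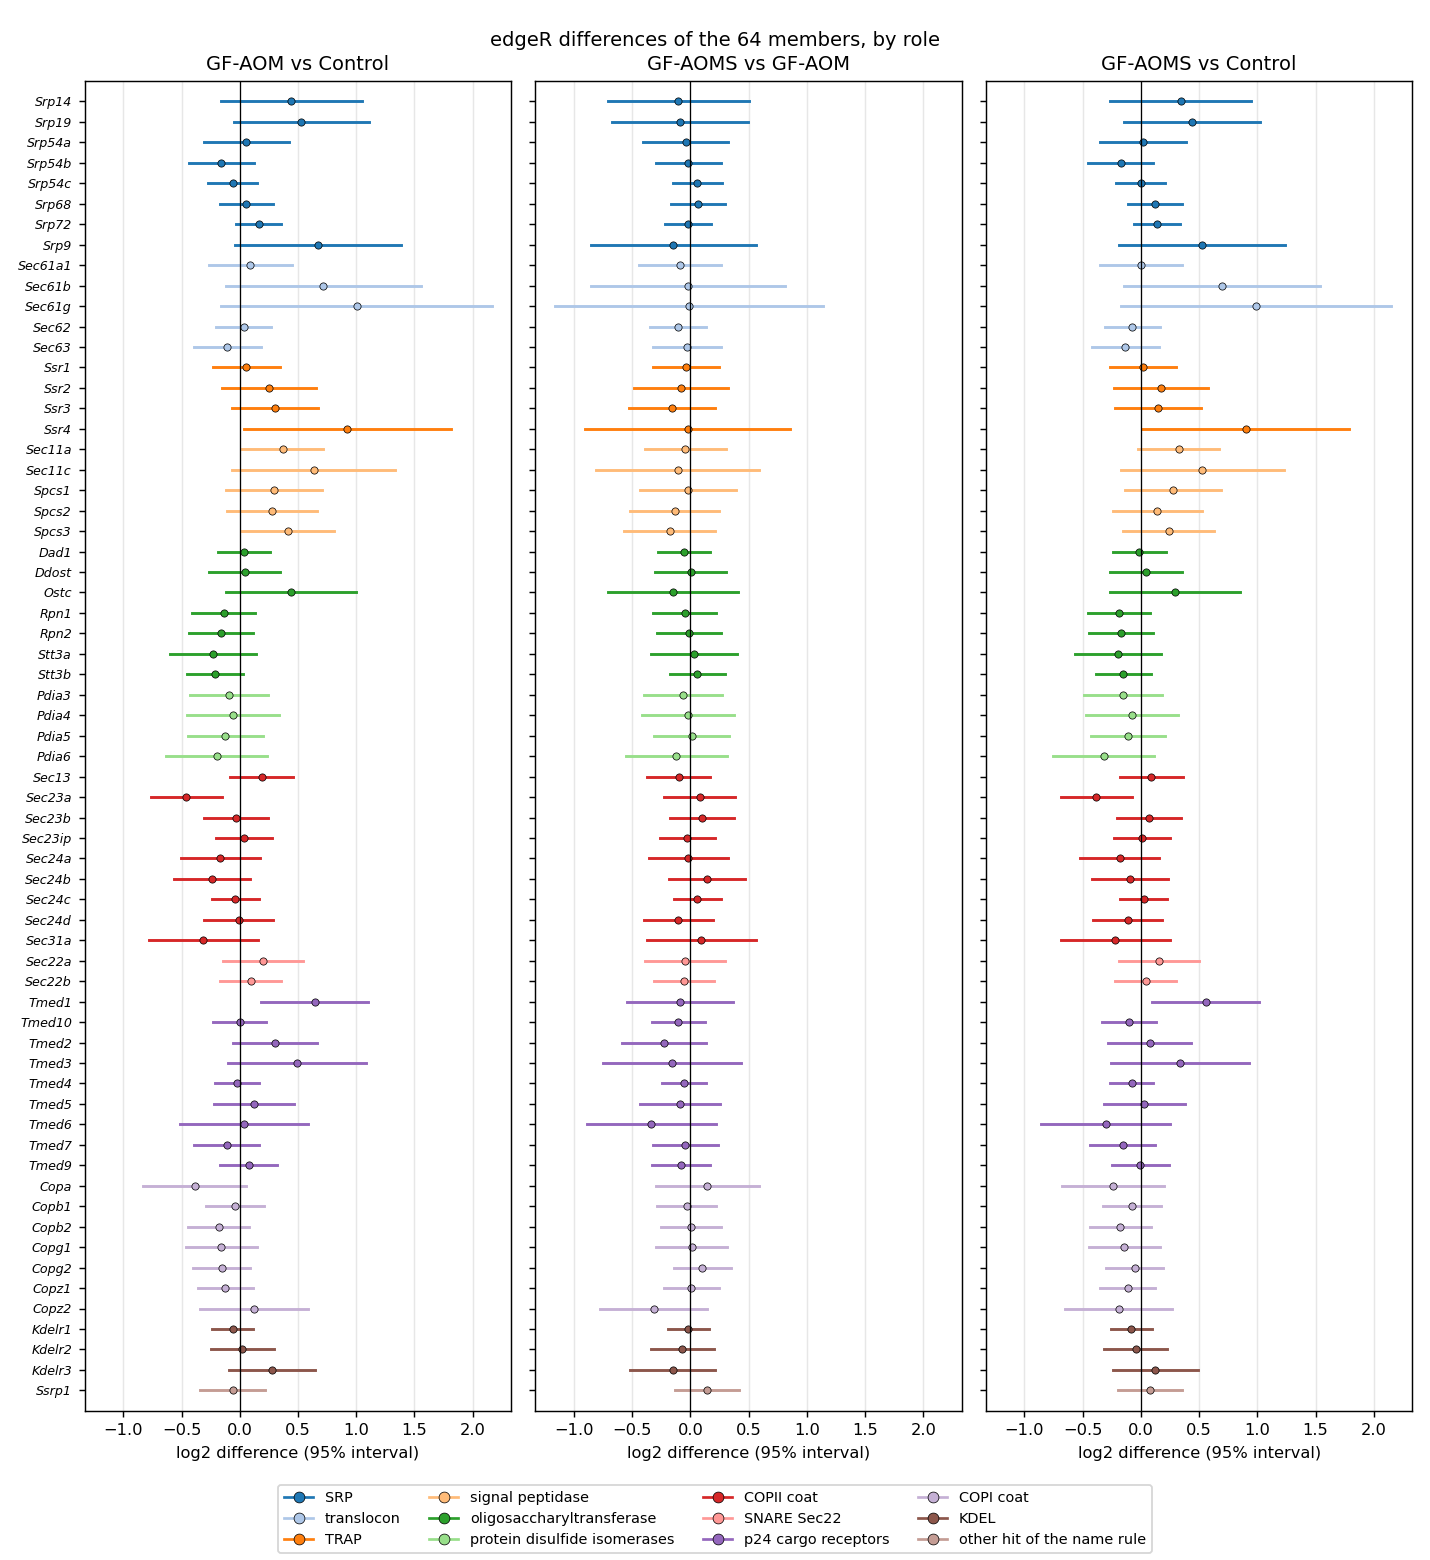
Log2 differences of the 64 members with 95% intervals from edgeR (x axis, log2 units), one row a gene, coloured by role, for 3 comparisons. The intervals of 63 of 64 members stay within 1 log2 unit of 0 in GF-AOMS against GF-AOM, and in the 2 comparisons with Control the points farthest to the right are Sec61g and Ssr4.

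Among the subunits of the signal recognition particle (SRP), Srp9 varied most between libraries, followed by Srp19 and Srp14; Srp9 and Srp14 together form the Alu domain. Levels are given in CPM, TMM-scaled read counts per 1000000 reads. Srp9 had a lowest, median and highest value of 86.9, 153 and 338 CPM in GF-AOMS libraries, 143, 181 and 329.8 CPM in GF-AOM libraries and 88.8, 116 and 237 CPM in Control libraries. The groups overlapped broadly, and its log2 difference was 0.67 (SE 0.34, adjusted p = 0.333) in GF-AOM against Control. Its dimer partner Srp14 had 50.0, 68.1 and 179.7 CPM in GF-AOMS libraries, 65.9, 88.2 and 137 CPM in GF-AOM libraries and 50.8, 63.6 and 108 CPM in Control libraries. GF-AOMS replicate 2 was the highest and the groups overlapped. The log2 difference was 0.44 (SE 0.29, adjusted p = 0.41) in the same comparison. With Control replicates 1 and 2 alone as the reference, these GF-AOM differences were 0.25 for Srp9 and 0.17 for Srp14. The large subunits Srp68 and Srp72, which bind the SRP RNA as a heterodimer, were far steadier: the SD of log2 CPM over the 18 libraries was 0.17 and 0.15, against 0.65 for Srp9 and 0.52 for Srp14. Srp19, which helps assemble the particle, had an SD of 0.53. The signal-peptide-binding subunit is present as 3 near-identical genes, Srp54a, Srp54b and Srp54c, between which reads may have been split, so their separate values are uncertain; their log2 differences between GF-AOMS and GF-AOM lay between -0.04 and 0.06. Several members in these paragraphs that no naming rule picked (such as Srp68, Sec61a1, Ssr1, Dad1, Ostc, Sec11c and Kdelr1) were chosen after their values were seen.

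The 3 subunits of the Sec61 channel differed in how much they varied between libraries. Sec61g, the small gamma subunit, had a lowest, median and highest value of 56.4, 106 and 551 CPM in GF-AOMS libraries, 78.2, 149 and 362 CPM in GF-AOM libraries and 53.2, 76.7 and 228 CPM in Control libraries. It was the most variable member, with a highest library 10.3 times its lowest and an SD of 1.03 on the log2 scale. Sec61b, the small beta subunit, had 151, 244 and 715 CPM in GF-AOMS libraries, 175, 312 and 559 CPM in GF-AOM libraries and 119, 184 and 418 CPM in Control libraries, a 6.03-fold range with GF-AOMS replicate 2 again at the top. Sec61a1, which forms the pore itself, had 256, 305 and 448 CPM in GF-AOMS libraries, 257, 334 and 433 CPM in GF-AOM libraries and 217, 322 and 384 CPM in Control libraries, a 2.07-fold range in which the 3 groups covered much the same values. Against Control, Sec61g differed by a log2 value of 1.00 (SE 0.55, adjusted p = 0.357) in GF-AOM and 0.99 (SE 0.55, adjusted p = 0.375) in GF-AOMS, and Sec61b by 0.72 (SE 0.40, adjusted p = 0.36) and 0.70 (SE 0.40, adjusted p = 0.383). Neither passed the test, and in both genes a single Control library, replicate 2, lay above most GF-AOM and GF-AOMS libraries. Sec61a1 differed by 0.09 in GF-AOM and 0.00 in GF-AOMS. When only Control replicates 1 and 2 were kept, Sec61g differed by 0.32 in GF-AOM and 0.31 in GF-AOMS. Sec61b then differed by 0.10 and 0.08, and Sec61a1 by -0.14 and -0.22. Within a library the ratio of Sec61g to Sec61a1 CPM, on the log2 scale, ran from -2.68 in Control replicate 5 to 1.11 in GF-AOMS replicate 2. Per length, on the deposited FPKM scale averaged over 18 libraries, Sec61b stood at 193, Sec61g at 53.3 and Sec61a1 at 41.8 FPKM. The length there followed all annotated exons, 1271, 2464 and 6732 bases for these 3 genes. Comparisons of FPKM between genes, here and below, therefore depend on that annotation. Sec62 and Sec63, which assist translocation of short and post-translationally inserted proteins, had SDs of 0.18 and 0.24.

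The translocon-associated protein (TRAP) complex, which assists the entry of some proteins through Sec61, also held a variable short subunit and a steady longer one. Its delta subunit Ssr4 had 229, 366 and 1274 CPM in GF-AOMS libraries, 286, 496 and 896 CPM in GF-AOM libraries and 155, 245 and 549 CPM in Control libraries, with 1 GF-AOMS library, replicate 2, far above the rest. Its log2 difference was 0.92 (SE 0.42, adjusted p = 0.308) in GF-AOM and 0.90 (SE 0.42, adjusted p = 0.305) in GF-AOMS, each against Control. The alpha subunit Ssr1 had 169, 199.99 and 266 CPM in GF-AOMS libraries, 180.4, 208 and 251 CPM in GF-AOM libraries and 150.1, 207 and 248 CPM in Control libraries, with log2 differences of 0.06 in GF-AOM and 0.02 in GF-AOMS and groups that overlapped throughout. Ssr2 and Ssr3 lay between them, at 0.25 and 0.30 in GF-AOM against Control. They are nearly as short as Ssr4, with 555 coding bases each against 519. Their SDs of log2 CPM were 0.34 and 0.31, against 0.83 for Ssr4. The median of the 4 subunits in that comparison was 0.28, and -0.14 against Control replicates 1 and 2 alone.

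Signal peptidase, which cleaves the signal peptide, had all 5 subunits higher in GF-AOM than in Control, with a median log2 difference of 0.37, and 2 with an unadjusted p under 0.05. Sec11a, a catalytic subunit, had 66.8, 78.1 and 120.3 CPM in GF-AOMS libraries, 66.2, 87.5 and 103 CPM in GF-AOM libraries and 53.9, 60.8 and 95.4 CPM in Control libraries, a log2 difference of 0.37 (SE 0.17, adjusted p = 0.304). Spcs3, an accessory subunit, had 147, 166 and 237 CPM in GF-AOMS libraries, 149.8, 189.8 and 255 CPM in GF-AOM libraries and 105, 124 and 221 CPM in Control libraries, a log2 difference of 0.41 (SE 0.19, adjusted p = 0.304). In both genes Control replicates 3 to 6 were the lowest libraries of their group, and these 4 also differ from the others in position markers: Hoxa13 and Hoxb13, homeobox genes of the distal colon, summed to between 2.65 and 5.63 CPM there, against 44.6 to 369 CPM in the other 14. Against the remaining Control replicates 1 and 2 alone, the difference for GF-AOM was 0.03 for Sec11a and -0.06 for Spcs3, and the median of the 5 subunits was 0.01. The other catalytic subunit, Sec11c, ranged over 4.11-fold across libraries, and Spcs1, the member of this complex with the highest mean, 71.2 FPKM, differed by 0.30 (SE 0.20, adjusted p = 0.416).

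**Figure D2:**
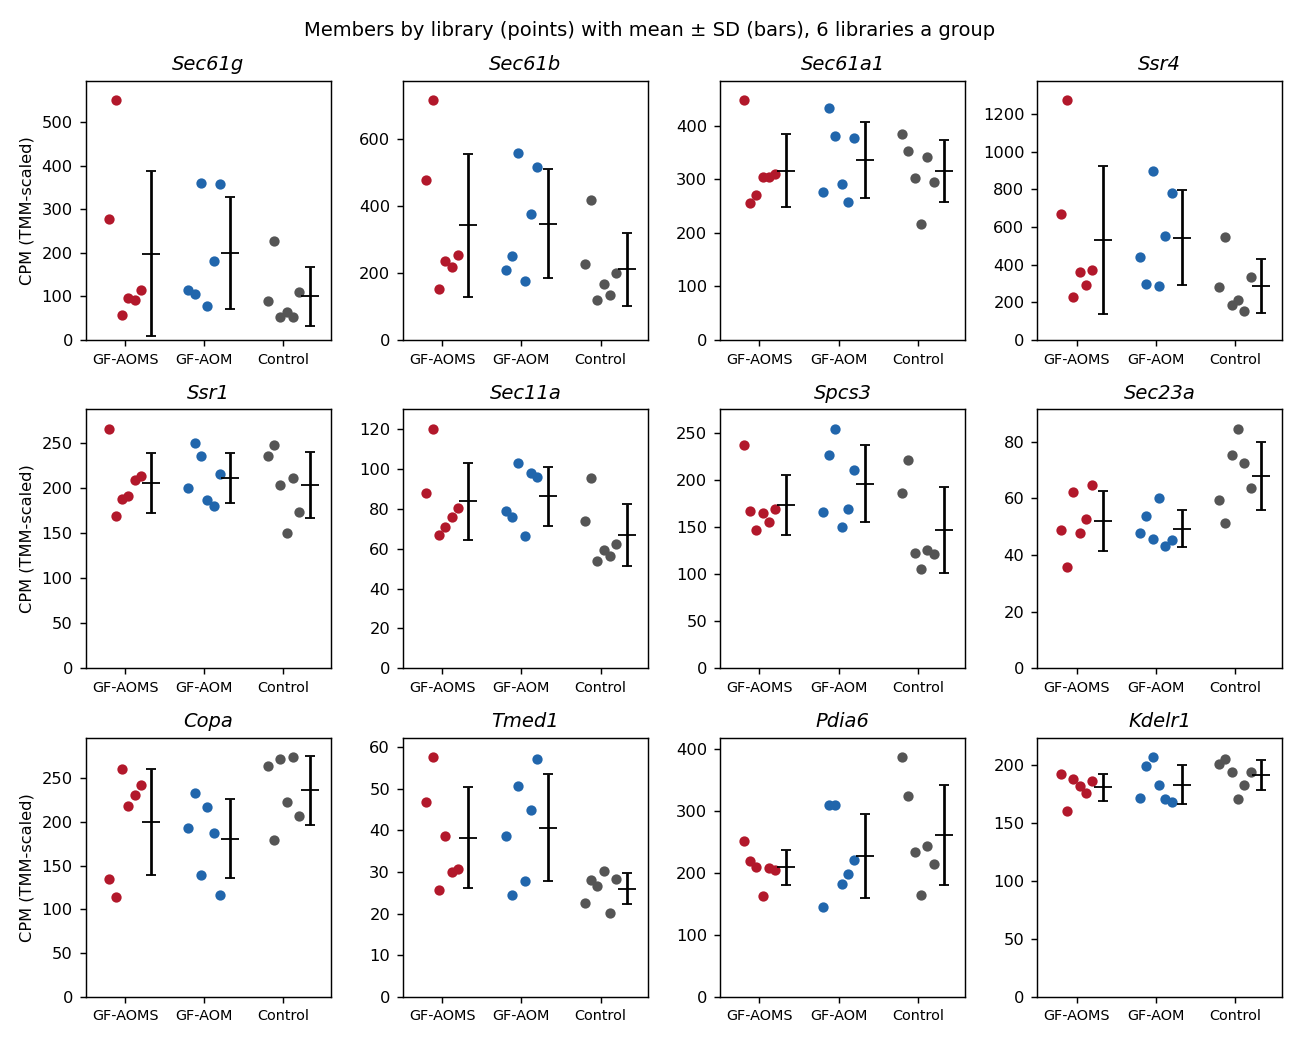
TMM-scaled CPM (y axis, linear from 0) of 12 members in each library, GF-AOMS, GF-AOM and Control from left to right, with the mean and SD of 6 libraries beside the points. Sec61g, Sec61b and Ssr4 are spread over several-fold within each group, while Sec61a1, Ssr1 and Kdelr1 are not, and the groups overlap in every panel.

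In oligosaccharyltransferase, which transfers the glycan, the SD of log2 CPM over 18 libraries was 0.23 for Ddost, 0.21 for Rpn1 and 0.21 for Rpn2. The alternative catalytic subunits Stt3a and Stt3b had SDs of 0.31 and 0.19, the first above and the other below the median of all members, 0.27. Ddost, the member of this complex with the highest mean at 118 FPKM, had 247, 302 and 305 CPM in GF-AOMS libraries, 223, 293 and 363 CPM in GF-AOM libraries and 221, 258 and 364 CPM in Control libraries. GF-AOMS libraries lay inside the range of both other groups, and the log2 difference was 0.00 (SE 0.15, adjusted p = 1.00) in GF-AOMS against GF-AOM. Rpn1, a ribophorin that presents substrates, had 215, 266 and 308 CPM in GF-AOMS libraries, 234, 258 and 339 CPM in GF-AOM libraries and 230.2, 309 and 349.9 CPM in Control libraries. The groups overlapped over most of their range, and it differed by -0.19 (SE 0.13, adjusted p = 0.458) in GF-AOMS against Control. Stt3b, a catalytic subunit, differed by -0.21 (SE 0.11, adjusted p = 0.352) in GF-AOM against Control. The 2 shortest subunits did not behave alike: Ostc, an adaptor to the translocon, had an SD of 0.49 on the log2 scale and a log2 difference of 0.44 in GF-AOM against Control, whereas Dad1 had an SD of 0.16 and a difference of 0.04. In the 6 GF-AOMS libraries Dad1 stayed between 125 and 136 CPM. Relative to Control replicates 1 and 2 alone, the GF-AOM difference was -0.06 for Ostc and -0.18 for Dad1. The median of the 7 subunits in GF-AOM was -0.14 against all Control libraries and -0.32 against replicates 1 and 2.

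The 4 disulfide isomerases of the list, Pdia3, Pdia4, Pdia5 and Pdia6, were all lower in GF-AOM than in Control, with a median log2 difference of -0.11, and none passed the test. Pdia3, which folds glycoproteins with calnexin and calreticulin and was the second highest member at 197 FPKM, had 552, 674 and 866 CPM in GF-AOMS libraries, 575, 683 and 880.1 CPM in GF-AOM libraries and 559, 713 and 937 CPM in Control libraries. No group stood apart, and its log2 difference was -0.06 (SE 0.16, adjusted p = 1.00) in GF-AOMS against GF-AOM. Pdia6 had 163, 209 and 251 CPM in GF-AOMS libraries, 145, 209 and 309.5 CPM in GF-AOM libraries and 165, 238 and 387 CPM in Control libraries. Control replicates 1 and 2 were the highest libraries of the series, and the difference was -0.32 (SE 0.21, adjusted p = 0.437) in GF-AOMS against Control. Set against Control replicates 1 and 2 alone, that difference was -0.76 and the median of the 4 genes in GF-AOM was -0.43. Here the choice of Control libraries moved the values away from 0, while for signal peptidase it moved them towards 0.

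Of the COPII coat, which buds vesicles from the ER, Sec23a had the smallest p of any member. This inner-coat subunit activates the GTPase SAR1 and had 35.8, 50.9 and 64.6 CPM in GF-AOMS libraries, 43.2, 46.5 and 60.2 CPM in GF-AOM libraries and 51.4, 68.0 and 84.6 CPM in Control libraries. Its log2 difference was -0.46 (SE 0.14, adjusted p = 0.168) in GF-AOM and -0.38 (SE 0.14, adjusted p = 0.224) in GF-AOMS, each against Control, with overlapping groups. Against Control replicates 1 and 2 alone these were -0.17 and -0.09. Its paralogue Sec23b had 51.7, 64.02 and 68.4 CPM in GF-AOMS libraries, 50.5, 56.3 and 79.2 CPM in GF-AOM libraries and 43.9, 59.2 and 74.9 CPM in Control libraries, with differences of -0.03 and 0.07 in the same comparisons. Sec24b, a cargo adaptor, differed by 0.15 (SE 0.15, adjusted p = 1.00) in GF-AOMS against GF-AOM, and Sec13, an outer-coat subunit, by 0.19 (SE 0.13, adjusted p = 0.425) in GF-AOM against Control. Sec24c was among the steadiest members, with an SD of 0.14. The SNARE Sec22b, which fuses ER and Golgi vesicles, had a log2 difference of -0.05 in GF-AOMS against GF-AOM and Sec22a one of -0.05.

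The p24 proteins, which sort cargo into both kinds of vesicle, included the most abundant member per length, Tmed2, at 204 FPKM. Tmed2 had 459, 539 and 778 CPM in GF-AOMS libraries, 524, 632 and 882 CPM in GF-AOM libraries and 460.2, 516 and 762 CPM in Control libraries. The highest and lowest libraries belonged to GF-AOM and GF-AOMS, with wide overlap, and its log2 difference was -0.23 (SE 0.17, adjusted p = 1.00) in GF-AOMS against GF-AOM. All 9 p24 members had negative differences in that comparison, with a median of -0.09, and none passed the test; without GF-AOMS replicate 2, 2 of 9 were positive. Tmed10 differed by -0.10 (SE 0.11, adjusted p = 1.00) there, and Tmed6, the least expressed of them, by -0.34 (SE 0.26, adjusted p = 1.00). Tmed1 had 25.6, 34.8 and 57.6 CPM in GF-AOMS libraries, 24.4, 41.7 and 57.3 CPM in GF-AOM libraries and 20.2, 27.4 and 30.2 CPM in Control libraries. The 6 Control values were narrowly spread and low, but 2 GF-AOM libraries lay among them, and the log2 difference was 0.64 (SE 0.22, adjusted p = 0.204) in GF-AOM and 0.56 (SE 0.22, adjusted p = 0.235) in GF-AOMS, each against Control. For Tmed1 the value against Control replicates 1 and 2 alone was as large, 0.68 for GF-AOM.

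COPI subunits, which coat vesicles of the return route, lay slightly below Control in most cases: 6 of 7 in GF-AOM and 7 of 7 in GF-AOMS, with medians of -0.15 and -0.14. Without GF-AOMS replicate 2, 5 of 7 were lower in GF-AOMS, with a median of -0.069, and with the length slope term that median was -0.025. Other settings moved it the other way. Without Control replicates 3 to 6 it was -0.21, with 0 of 7 subunits higher, and with a term for colon position it was -0.22. Copa, the alpha subunit and the largest of them, had 114, 225 and 261 CPM in GF-AOMS libraries, 116, 190.0 and 234 CPM in GF-AOM libraries and 179, 243 and 274 CPM in Control libraries. Its 4 lowest libraries were GF-AOMS replicates 1 and 2 and GF-AOM replicates 3 and 6, all below every Control library, and the log2 difference was -0.39 (SE 0.21, adjusted p = 0.355) in GF-AOM against Control. Copb2 differed by -0.18 (SE 0.12, adjusted p = 0.47) in GF-AOMS against Control and Copg2 by 0.10 (SE 0.12, adjusted p = 1.00) in GF-AOMS against GF-AOM. Copz1, the most abundant COPI member per length at 40.4 FPKM, had 135, 170.3 and 179.9 CPM in GF-AOMS libraries, 142, 155 and 216 CPM in GF-AOM libraries and 159, 173 and 206 CPM in Control libraries, with GF-AOM replicate 2 above all others. Its paralogue Copz2 had 11.9, 14.1 and 30.9 CPM in GF-AOMS libraries, 17.3, 21.4 and 25.4 CPM in GF-AOM libraries and 14.5, 17.999 and 25.9 CPM in Control libraries, and its difference of -0.31 (SE 0.22, adjusted p = 1.00) had the smallest p of any member in GF-AOMS against GF-AOM. With GF-AOMS replicate 2 left out, the library with the highest Copz2 value, it was -0.57. Kdelr2, the KDEL receptor with the highest mean at 106 FPKM, had 185, 210.5 and 272 CPM in GF-AOMS libraries, 174, 229 and 279 CPM in GF-AOM libraries and 175, 226 and 272 CPM in Control libraries, ranges that nearly coincide. Kdelr1 had the lowest SD of all 64 members, 0.11, with a 1.29-fold range over 18 libraries. Ssrp1, the FACT subunit, differed by 0.14 (SE 0.13, adjusted p = 1.00) in GF-AOMS against GF-AOM.

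Across the whole list, the members that varied between libraries were mostly those with short coding sequences. The median SD of log2 CPM over 18 libraries was 0.269 for members and 0.319 for all genes. An SD above 0.5 was found for 8 members (12.5%, against 21.6% of all genes): Sec61g, Ssr4, Sec61b, Srp9, Sec11c, Srp19, Tmed3 and Srp14, all with a longest annotated coding sequence of 663 bases or less. An SD under 0.2 was found for 16 members (25.0%, against 17.6% of all genes). Ordered by coding length, the shortest 22 members (258 to 663 bases) had a median log2 difference of 0.30 in GF-AOM against Control, with 19 of 22 higher, and the longest 21 (1875 to 3753 bases) one of -0.15, with 3 of 21 higher. All genes of the same length ranges had medians of 0.19 and -0.12, so the direction was shared by the whole table. Against Control replicates 1 and 2 alone, the short members had a median of -0.016 with 11 of 22 higher, and the long members -0.17. In GF-AOMS against Control the same medians were 0.20 and -0.11 for members, and 0.15 and -0.09 for all genes. Without Control replicates 3 to 6 the sign of the short members turned: the medians were -0.18 (6 of 22 higher) and -0.10 for members, and 0.041 and 0.013 for all genes. Without GF-AOMS replicate 2 they were 0.13 and -0.033 for members. In GF-AOMS against GF-AOM the sign was the opposite, with -0.10 for short and 0.03 for long members and -0.02 and 0.03 for all genes. Without GF-AOMS replicate 2 these were -0.21 and 0.11 for members and -0.15 and 0.09 for all genes.

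As a description across genes, which are not independent replicates and share the same libraries, Pearson's r between log2 difference and log2 coding length over the 64 members was 0.59 in GF-AOMS against GF-AOM, -0.75 in GF-AOM against Control and -0.62 in GF-AOMS against Control. Over the 9760 genes with a coding length it was 0.15, -0.35 and -0.28. Without Control replicates 3 to 6, r over the members was -0.47 in GF-AOM against Control and -0.19 in GF-AOMS against Control. Without GF-AOMS replicate 2 it was 0.76 in GF-AOMS against GF-AOM and -0.38 in GF-AOMS against Control. Each library's own slope on length, estimated over all genes, was also added to the fit as a term. The length used for that slope was exon length, not coding length. With the term, r between difference and coding length over the members was 0.51, -0.09 and 0.23. The GF-AOM against Control differences became -0.00 for Sec61g, 0.03 for Sec61b, 0.19 for Ssr4, 0.11 for Srp9, 0.26 for Tmed1 and -0.23 for Sec23a. That term was estimated from the same libraries and is partly shared with the groups, so length and group cannot be told apart by it.

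**Figure D3:**
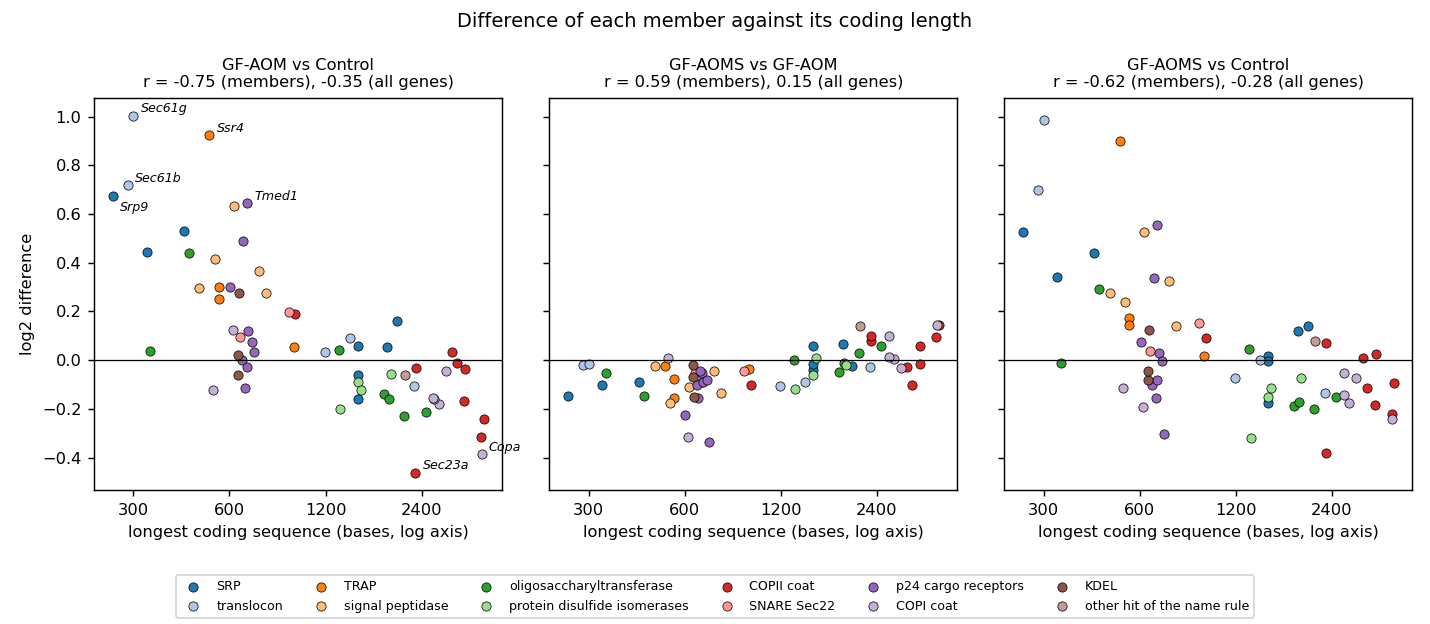
Log2 difference of each member (y axis) against its longest annotated coding sequence in bases (x axis, log scale), coloured by role, for 3 comparisons, with Pearson's r over the members and over all genes above each panel. Short members lie highest in both comparisons with Control, r being -0.75 and -0.62 with all libraries and -0.47 and -0.19 without Control replicates 3 to 6. Between GF-AOMS and GF-AOM the medians of the 22 shortest and 21 longest members were -0.10 and 0.03. Without GF-AOMS replicate 2 these were -0.21 and 0.11.

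Several short subunits were high in the same few libraries, but not all were. Copz1, Dad1 and Tmed10, with coding sequences of 531, 339 and 657 bases, were highest in GF-AOM replicate 2 or Control replicate 1. For Sec61g, Sec61b, Srp9, Sec11c, Tmed3 and Ostc the 5 highest libraries were the same 5: GF-AOMS replicates 1 and 2, GF-AOM replicates 3 and 6, and Control replicate 2. For Ssr4 they were 4 of its 5 highest. Sec61g lay between 228 and 551 CPM in these 5, against 53.2 to 182 CPM in the other 13. The same 5 libraries had the lowest TMM scaling factors, 0.721 to 0.895, against 1.00 to 1.16. Genes of ribosomal proteins, which are also short and are no members, took 15.7% to 26.6% of their reads, against 5.32% to 16.3%. The slopes of these 5 libraries on exon length were -0.306 to -0.091, against -0.060 to 0.194. The summed level of 10 goblet cell markers was 24167 to 34755 CPM, against 11731 to 26351 CPM. For 9 plasma cell markers it was 7324 to 17863 CPM, against 2503 to 24321 CPM. For 7 smooth muscle markers it was 4032 to 12244.5 CPM, against 1550 to 5753 CPM. For 9 absorptive colonocyte markers it was 3294 to 6684 CPM, against 2191 to 29124 CPM. The part of these cell types in the levels of the short subunits was not tested. In bulk tissue, more cells of a type and more RNA per cell cannot be told apart.

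Without these 5 libraries, a choice made after seeing the data, the log2 difference of GF-AOM against Control was 0.70 for Sec61g, 0.58 for Sec61b, 0.76 for Ssr4, 0.51 for Srp9 and -0.46 for Sec23a. In GF-AOMS against Control it was 0.28 for Sec61g and 0.43 for Ssr4. Members called remained 0 in each comparison, while the number of all genes called was 1 in GF-AOMS against GF-AOM, 132 in GF-AOM against Control and 277 in GF-AOMS against Control. This choice left Control replicates 1 and 3 to 6, and replicates 3 to 6 are those with low Hoxa13 and Hoxb13. It therefore cannot separate position from group. With Control replicates 3 to 6 left out instead, the GF-AOM against Control difference was 0.32 for Sec61g and 0.10 for Sec61b. In that setting it was 0.38 for Ssr4, 0.25 for Srp9 and -0.17 for Sec23a. GF-AOMS replicate 2 stood furthest apart, and leaving it out alone moved Sec61g in GF-AOMS against Control to 0.36 and Ssr4 to 0.44, and in GF-AOMS against GF-AOM to -0.66 and -0.50.

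**Figure D4:**
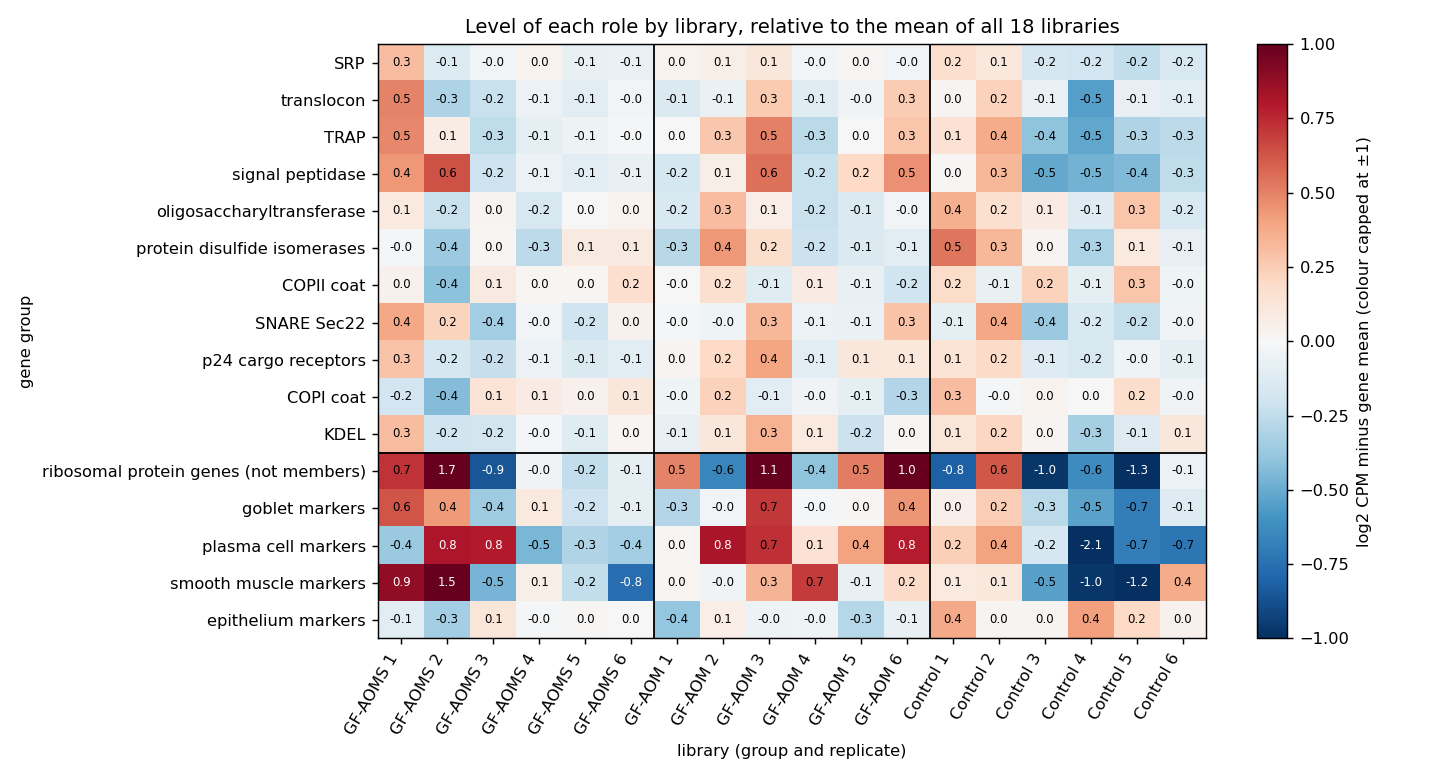
Level of each role in each library as the median over its members of log2 CPM minus the gene's mean over 18 libraries (columns, GF-AOMS, GF-AOM and Control from left to right), with ribosomal protein genes and 4 sets of cell markers below the line. Signal peptidase and TRAP are high in GF-AOM replicates 3 and 6, GF-AOMS replicate 1 and Control replicate 2, and low in Control replicates 3 to 5, while the COPI and COPII coats are lowest in GF-AOMS replicate 2, where signal peptidase is highest.

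GF-AOMS against GF-AOM, the comparison in which the labelled groups differ by smoke, had the narrowest range of differences among the members. Of the 64 members 47 had a negative log2 difference and 17 a positive one. The differences ran from -0.34 for Tmed6 to 0.15 for Copa. All 5 translocon, 4 TRAP, 5 signal peptidase, 9 p24 and 3 KDEL receptor genes were on the negative side, while 5 of 9 COPII and 5 of 7 COPI genes were on the positive side. No gene among them passed the test. The count depended on 1 library: without GF-AOMS replicate 2, 29 of 64 members were positive and the median was -0.02.

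The summed level of 10 goblet cell markers lay between 13319 and 33576 CPM in GF-AOMS libraries, 13155 and 34755 CPM in GF-AOM libraries, and 11731 and 26351 CPM in Control libraries. The sum of 9 of 10 plasma cell markers lay between 7324 and 24321 CPM in GF-AOMS libraries, 12625 and 23570 CPM in GF-AOM libraries, and 2503 and 14420 CPM in Control libraries, and that of 9 of 10 absorptive colonocyte markers between 3294 and 6453 CPM in GF-AOMS libraries, 2191 and 5570 CPM in GF-AOM libraries, and 6684 and 29124 CPM in Control libraries. All 7 epithelial markers were above 0 in every library, as were the measured smooth muscle, fibroblast and macrophage markers. Their presence alone therefore does not identify the tissue. Absorptive colonocyte sums were 8845 and 6684 CPM in Control replicates 1 and 2, and 11929, 29124, 14864 and 12278 CPM in replicates 3 to 6. The lowest plasma cell sum, 2503 CPM, was that of Control replicate 4. The part of these marker levels in the members' differences from Control was not tested.

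Other genes of the pathway, outside the name rule, were counted in the same way. Of 93 measured from a list of 98, 0 were called by edgeR in any comparison; an unadjusted p under 0.05 was seen for 1 lower in GF-AOMS against GF-AOM, where 1.09% of all genes had one in either direction. In GF-AOM against Control it was seen for 6 higher and 3 lower, against 5.98% and 9.74% of all genes, and in GF-AOMS against Control for 2 higher and 3 lower, against 6.93% and 9.25%. Herpud1, an ER-stress-induced factor of ER-associated degradation, had 153, 172 and 243 CPM in GF-AOMS libraries, 174, 189 and 263 CPM in GF-AOM libraries and 105, 137 and 160.3 CPM in Control libraries. Every GF-AOM library lay above every Control library, and its log2 difference was 0.58 (SE 0.14, adjusted p = 0.0987). DESeq2 called it. Between these groups 0.762% of all genes did not overlap and DESeq2 called 2.61% of all genes. The genes named here were picked for the smallest p-values of their lists, so they do not stand for the 93. Xbp1, which encodes the transcription factor of the unfolded protein response, had 334, 411 and 452 CPM in GF-AOMS libraries, 361, 445 and 572 CPM in GF-AOM libraries and 269, 331 and 425 CPM in Control libraries. The groups overlapped, and the difference was 0.45 (SE 0.14, adjusted p = 0.169) in GF-AOM against Control and 0.19 against Control replicates 1 and 2 alone. Lman2l, a lectin of early secretory vesicles, had 8.94, 10.5 and 12.1 CPM in GF-AOMS libraries, 9.07, 11.3 and 11.9 CPM in GF-AOM libraries and 13.3, 13.8 and 16.0 CPM in Control libraries. Its values were below all Control values in both other groups. The log2 differences were -0.38 (SE 0.11, adjusted p = 0.123) for GF-AOM and -0.41 (SE 0.11, adjusted p = 0.08) for GF-AOMS, and DESeq2 called both. Between GF-AOMS and Control 0.798% of all genes did not overlap and DESeq2 called 3.44%. For Herpud1 and Lman2l the values against Control replicates 1 and 2 alone are not given here. Atf4, a transcription factor of the stress response, had 148, 199 and 268 CPM in GF-AOMS libraries, 231, 241 and 305 CPM in GF-AOM libraries and 201, 218 and 282 CPM in Control libraries. The 2 groups without smoke overlapped with GF-AOMS, whose median was the lowest, and the difference was -0.29 (SE 0.13, adjusted p = 1.00) in GF-AOMS against GF-AOM. The 25 other ER chaperone and folding genes had a median log2 difference of -0.14 in that comparison, with 22 lower, against a median of 0.01 over all genes. Canx, the lectin chaperone calnexin, differed by -0.28 (SE 0.12, adjusted p = 0.27) in GF-AOMS against Control, and Os9, which delivers misfolded glycoproteins for degradation, by -0.38 (SE 0.12, adjusted p = 0.163).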

How the data were processed

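Total RNA depleted of ribosomal RNA was sequenced with a strand-specific protocol, per the labels' protocols, which ask for RIN of at least 7. The deposited table gives raw read counts per gene and FPKM values made by the authors for 18 libraries. The submitters' processing notes name GRCm39, featureCounts and DESeq2. Neither their versions nor an aligner is given in the sources used here. The table's gene coordinates match GRCm38, so no GRCm39 position is printed. Library totals were 48.9 to 79.2 M counts.

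Counts of all 10897 genes in all 18 libraries were fitted with edgeR 4.0.16 (R 4.3.3; TMM scaling, quasi-likelihood test, Benjamini-Hochberg adjustment over all genes), with 1 mean per group and 15 residual degrees of freedom. CPM are TMM-scaled counts per 1000000. DESeq2 1.42.0 and limma 3.58.1 were alternatives. So were terms for colon position (Hoxa13, Hoxb13) and for each library's slope of log2 level on exon length. Exon length was taken from the ratio of counts to FPKM, which followed the annotated exon length in all 64 members. The 3 tools, without added terms, were tested on simulated counts. These had the same spread setting for all genes and no shift shared by the genes of a library, so the test does not cover such shifts. Members were named where called, among the 5 smallest p-values per direction and comparison, or highest in FPKM within a role. Members and lists were chosen with earlier results of these data known.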

Additional observations from a re-analysis of the deposited data

Results flagged for a closer look

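Among 87 sets of 6 values for the named members, 7 held 1 library farther from the other 5 than Dixon's test at the 95% level allows; chance gives this in about 1 in 20 groups. In GF-AOMS, Spcs3 stood at 237 CPM in replicate 1 (others 147 to 169), Tmed6 at 7.80 CPM in replicate 2 (others 3.14 to 3.99) and Ddost was low at 247 CPM in replicate 4 (others 285 to 305). In GF-AOM, replicate 2 stood apart for Sec23b at 79.2 CPM (others 50.5 to 58.7) and for Copz1 at 216 CPM (others 142 to 159). In Control, replicate 2 stood apart for Sec61b at 418 CPM (others 119 to 228) and for Sec61g at 228 CPM (others 53.2 to 111).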

How the results depend on the processing

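Members called stayed at 0 in every alternative. The number of all genes called, 0 in GF-AOMS against GF-AOM, 1 in GF-AOM against Control and 80 in GF-AOMS against Control, did not: with DESeq2 it was 3, 284 and 375. In GF-AOMS against GF-AOM it was 2 with the length slope term and 1 without the 5 libraries of low TMM factor, an alternative chosen after seeing the data. In GF-AOM against Control it was 0 with limma at either pseudocount, library totals only, only the groups compared or the colon position term, and 132 without those 5 libraries. In GF-AOMS against Control it was 19 and 20 with limma at pseudocounts of 1 and 0.1, 28 with library totals only, 0 with only the groups compared, with the colon position term or without Control replicates 3 to 6, 6 with the length slope term and 277 without those 5 libraries. Leaving out 1 library at a time gave 0 to 0, 0 to 356 and 0 to 493 genes. The cause of these moves was not tested.

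The members' median log2 difference was -0.12 in GF-AOM against Control and -0.15 in GF-AOMS against Control with the colon position term, and -0.14 and -0.18 without Control replicates 3 to 6; leaving out 1 library it ran from -0.11 to 0.00 in GF-AOMS against GF-AOM, -0.02 to 0.08 in GF-AOM against Control and -0.05 to 0.05 in GF-AOMS against Control. Of the named members' values, 897 kept their direction and side of the threshold and 3 changed sign: Spcs3 in GF-AOM against Control (-0.059) and Sec11a in GF-AOMS against Control (-0.014), both without Control replicates 3 to 6, and Sec61g in GF-AOMS against Control (-0.077) with the length slope term.

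Replicate numbers recur in the 3 groups, but same-numbered libraries deviated together in only 7 of 18 pairs (r above 0.1; range -0.619 to 0.517), and 1 of 18 libraries correlated best with its own number, so they were not taken as pairs. With replicate as a block, 0, 2 and 33 genes were called in GF-AOMS against GF-AOM, GF-AOM against Control and GF-AOMS against Control, and 0 members.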
